A study of Mus musculus with 8 samples.

Results

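The miR-23, miR-27 and miR-24 families of the mouse are encoded by a pair of paralogous clusters, called a and b here: the a cluster holds the hairpins Mir23a, Mir27a and Mir24-2, and the b cluster holds Mir23b, Mir27b and Mir24-1. The 10 arms described here are those whose mature name was on a fixed list, and they are 10 of the 1624 mature miRNA names in a table of 5716 small RNAs. The rule used names and no measured value. Small RNA was sequenced from mesenchymal stromal cells (MSCs) of C57BL/6J mice, taken from the pancreas (pMSCs, 4 libraries, numbered 5 to 8) or from inguinal white adipose tissue (iwatMSCs, 4 libraries, numbered 13 to 16). In both groups the mice were untreated males 8 weeks old on a standard diet, CD45-, CD31-, SCA1+ cells were sorted, and the sorted cells of 3 to 5 mice were pooled and grown for 4 days before RNA was taken. Both tissues came from the same mice by the study's methods, but the labels do not tie a library to its mice. The tests therefore treat the libraries as independent, though pools of the tissues may share mice. A p-value weighs the tissue difference against the spread between these libraries only. The comparison asks how the miRNA content of stromal cells differs between the pancreas and a subcutaneous fat depot.

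The libraries held 20793619 to 25824261 small RNA reads, of which 35.8% to 41.0% were assigned to mature miRNAs, and the 10 arms took 4.14% (library 7) to 7.00% (library 8) of the mature reads. The 5 mesenchymal markers summed to 58550 to 72344 CPM (reads on a common scale of library size) in pMSCs and to 36707 to 46926 CPM in iwatMSCs, with 2 of 5, miR-143-3p and miR-145a-5p, called higher in pMSCs. Most of these sums in pMSCs was miR-143-3p, at 44734 to 61443 CPM there and at 13467 to 17515 CPM in iwatMSCs. None of the 5 was called lower, but miR-214-3p was at 1356 to 2537 CPM in pMSCs and, without overlap, at 3076 to 19352 CPM in iwatMSCs. Its top value was in library 15. miR-199a-5p was at 8222 to 12128 CPM in pMSCs and at 11090 to 17759 CPM in iwatMSCs. miR-199a-3p was at 8961 and 10521 CPM in libraries 13 and 14 and at 11.3 to 108 CPM in the other 6. None of 4 haematopoietic markers passed the test, with sums of 9.65 to 18.8 CPM in pMSCs and, without overlap, 27.6 to 33.7 CPM in iwatMSCs, most of it miR-150-5p. miR-142a-3p, which CD45+ cells carry, was at most 0.53 CPM. None of 3 muscle markers passed the test either (sums of 293 to 477 against 366 to 781 CPM). All 5 epithelial markers of the miR-200 family were higher in pMSCs and summed to 235 to 584 CPM there, against 12.3 to 20.0 CPM in iwatMSCs. The same held for 3 of 3 acinar markers (sums of 5.88 to 30.1 against 0.33 to 0.55 CPM) and for islet miR-375-3p (254 to 807 against 3.53 to 22.5 CPM). Neither of 2 endothelial markers passed the test (sums of 218 to 417 against 196 to 353 CPM). Library 7 of the pMSCs had ordinary read counts, but the second value deposited with each count, called TPM, was 1 in 872 of its 907 mature rows with more than 1 read, all 10 arms included. Fold changes and ratios are therefore given with and without library 7.

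A miRNA hairpin is cut into a 5p and a 3p arm, and the arm that is loaded into an Argonaute protein pairs with messenger RNAs chiefly through its seed, the bases just after its 5′ end. Paralogous miRNAs with the same seed are treated as one family, since they can pair with the same sites. The miR-27 family is known in fat biology for repressing Pparg, the nuclear receptor that drives adipocyte formation, and Prdm16, a regulator of brown and beige fat, while miR-23 and miR-24 share its transcripts.

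The mature sequences are shown because a read can be assigned to the a or the b paralog only by the bases at which they differ. Of the 10 listed names, 9 had an entry among the RefSeq miRNAs of the assembly GRCm38.p6, and miR-24-1-5p, the 5p arm that only the b cluster makes and that is not among the 10 arms, is shown with them. They are written 5′ to 3′ with the seed, bases 2 to 8, in capitals. miR-23b-3p is named only.
miR-23a-5p: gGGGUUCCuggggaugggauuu
miR-23a-3p: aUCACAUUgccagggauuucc
miR-27a-5p: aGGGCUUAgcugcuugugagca
miR-27a-3p: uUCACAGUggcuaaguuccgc
miR-24-2-5p: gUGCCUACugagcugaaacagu
miR-24-3p: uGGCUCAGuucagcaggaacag
miR-23b-5p: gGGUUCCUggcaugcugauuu
miR-27b-5p: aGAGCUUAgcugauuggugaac
miR-27b-3p: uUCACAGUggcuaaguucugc
miR-24-1-5p: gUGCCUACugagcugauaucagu

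miR-27a-3p and miR-27b-3p shared the seed UCACAGU and 20 of 21 bases, and differed only by C19U, written as the base of the a arm, its position from the 5′ end, and the base of the b arm. miR-24-3p is a single mature sequence made by both clusters, so its reads cannot be assigned to either. The 5p arms can: miR-24-2-5p and miR-24-1-5p share the seed UGCCUAC, their first 16 bases and their last 4, and differ in the stretch between, where miR-24-1-5p is 1 base longer (23 against 22 bases). miR-27a-5p and miR-27b-5p have different seeds and differ at 8 of 22 positions when compared base by base without gaps. miR-23b-5p starts 1 base later than miR-23a-5p, so their seeds, GGUUCCU and GGGUUCC, are shifted against each other.

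In GRCm38.p6 the a cluster lies on the plus strand of chromosome 8 from 84208518 to 84208921, a span of 404 bases. Leaving miRNA genes aside, no gene of the annotation (GENCODE M21) contains any of its hairpins. The b cluster lies on the plus strand of chromosome 13 from 63300484 to 63301275, a span of 792 bases within the protein-coding gene 2010111I01Rik. Mir23b is in an intron of that gene, and Mir27b and Mir24-1 overlap annotated exons of it. All 3 hairpins also lie within an intron of Fancc on the opposite strand. The arms of a cluster share this source, so they are not independent replicates of one another.

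The 4 arms that only the b cluster makes among the 10, miR-23b-3p, miR-23b-5p, miR-27b-3p and miR-27b-5p, were all higher in pMSCs, by 2.63- to 3.43-fold. None of the 4 arms that only the a cluster makes passed the test, and neither did miR-24-3p or miR-24-2-5p. All 10 arms passed the filter of a mean of 1 read in at least 1 tissue. The edgeR quasi-likelihood test called 4 of the 10 higher in pMSCs and 0 lower at an adjusted p under 0.05, beside 6.45% called among the 1241 mature miRNAs tested (3.46% higher and 2.98% lower in pMSCs). Without library 7 the same 4 were called, beside 5.39% of 1244 tested (2.65% higher and 2.73% lower). The tissues did not overlap for these 4 arms, as for 13.7% of all tested miRNAs (6.93% with pMSCs higher). The median log2 fold change of pMSCs over iwatMSCs was 1.47 over the 4 b arms, 0.05 over the 4 a arms, and -0.07 over all miRNAs tested. In these bulk libraries, fewer cells of a type and less RNA per cell cannot be told apart. The epithelial, acinar and islet markers and, among the mesenchymal markers, miR-143-3p and miR-145a-5p moved in the same direction as the b arms. The mesenchymal marker miR-214-3p went the other way, uncalled but without overlap (1356 to 2537 CPM in pMSCs, 3076 to 19352 CPM in iwatMSCs). For miR-199a-3p and miR-199a-5p the tissues overlapped. The part of these markers in the difference was not tested.

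**Figure D1:**
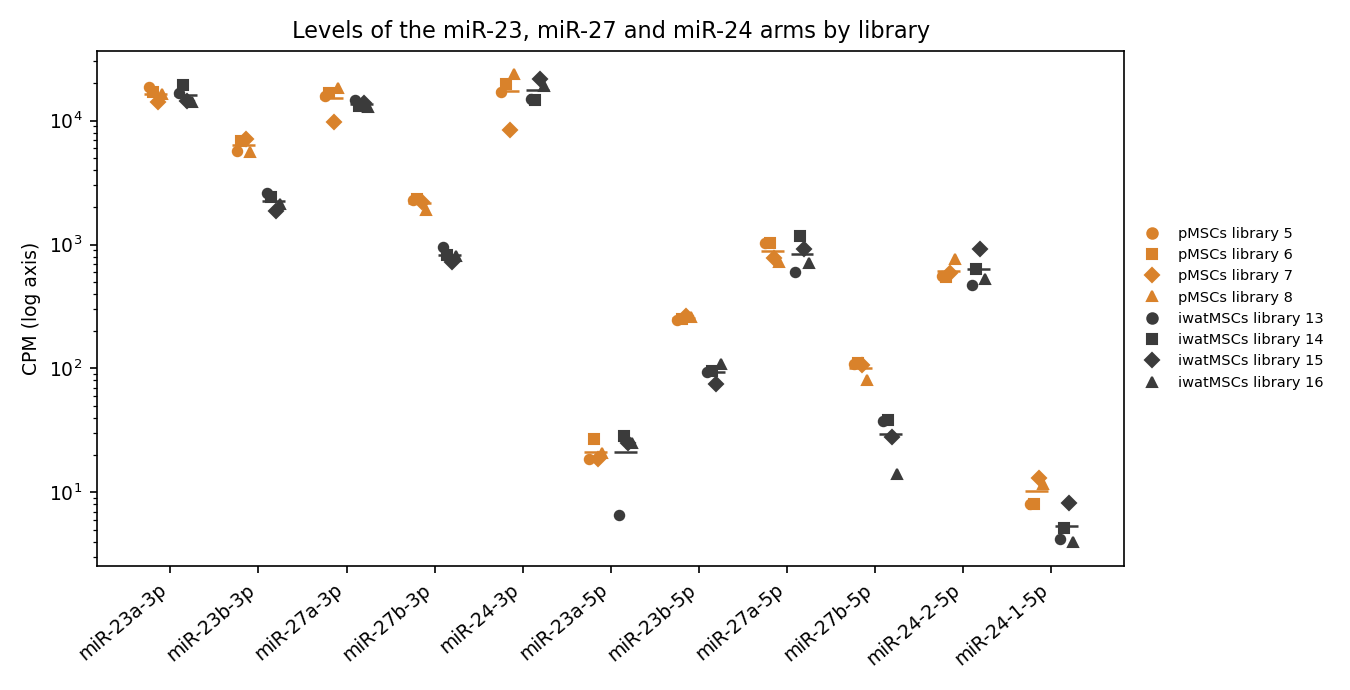
CPM of each arm on a log axis in each of the 8 libraries, with pMSCs in orange, iwatMSCs in dark grey and a bar at the mean of each tissue. The 4 b arms of miR-23 and miR-27 are higher in every pMSCs library than in any iwatMSCs library, while the a arms and the miR-24 arms of the list overlap.

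mmu-miR-23b-3p, the main product of Mir23b, was at 5674, 6852, 7089 and 5625 CPM in pMSCs libraries 5, 6, 7 and 8, and at 2601, 2439, 1862 and 2117 CPM in iwatMSCs libraries 13, 14, 15 and 16. CPM are the usual counts per 1e6 mature reads, after TMM scaling of the library sizes. Every pMSCs library was above every iwatMSCs library, with means of 6310 ± 769 and 2255 ± 330 CPM (SD, n = 4 each). The log2 fold change was 1.48 with a standard error (SE) of 0.16, a 2.80-fold difference (edgeR, adjusted p = 0.000431), and 1.37 without library 7 (edgeR, adjusted p = 0.0041).

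mmu-miR-23b-5p, the minor arm of the same hairpin, was at 246.5, 252.2, 264.0 and 261.0 CPM in pMSCs and at 93.9, 95.5, 74.4 and 109.0 CPM in iwatMSCs, in the same order of libraries. The pMSCs values lay within a narrow band and the tissues did not overlap. Its log2 fold change was 1.46 (SE 0.16, edgeR, adjusted p = 0.000431), or 2.75-fold, and 1.39 without library 7 (edgeR, adjusted p = 0.00488).

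mmu-miR-27b-3p, the arm of Mir27b with the seed known to pair with Pparg, was at 2284, 2320, 2219 and 1881 CPM in pMSCs and at 952, 819, 720 and 815 CPM in iwatMSCs. Library 8 was the lowest of the pMSCs and was still above all 4 iwatMSCs libraries. The log2 fold change was 1.40 (SE 0.14, edgeR, adjusted p = 0.000335), or 2.63-fold, and 1.34 without library 7 (edgeR, adjusted p = 0.00318).

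mmu-miR-27b-5p, the minor arm of Mir27b, was at 107.7, 110.7, 107.0 and 80.2 CPM in pMSCs and at 37.9, 38.4, 27.8 and 14.2 CPM in iwatMSCs. Its lowest value in each tissue, in libraries 8 and 16, stood apart from the other 3, and the tissues did not overlap. The log2 fold change was 1.78 (SE 0.31, edgeR, adjusted p = 0.00819), or 3.43-fold, and 1.70 without library 7 (edgeR, adjusted p = 0.0271). It had the widest error of the 4 b arms.

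Among the a arms, mmu-miR-23a-3p was the most abundant, at 18598, 16847, 14016 and 16328 CPM in pMSCs and 16731, 19366, 14397 and 14163 CPM in iwatMSCs. The tissues overlapped throughout. Its log2 fold change was 0.03 with a 95% interval of -0.32 to 0.37 (edgeR, adjusted p = 0.931), an interval that lies wholly below that of miR-23b-3p (1.12 to 1.84). Without library 7 it was 0.05 (95% interval -0.38 to 0.47).

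mmu-miR-27a-3p, which shares the seed of miR-27b-3p, was at 15871, 16784, 9751 and 18444 CPM in pMSCs and 14782, 13094, 13765 and 12958 CPM in iwatMSCs. Library 7 was the lowest of all 8 libraries, and the other pMSCs libraries were above the 4 of iwatMSCs. The log2 fold change was 0.16 (SE 0.20, 95% interval -0.28 to 0.60, edgeR, adjusted p = 0.696). Without library 7 it was 0.28 (95% interval -0.07 to 0.63, edgeR, adjusted p = 0.401).

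The minor a arms were spread within each tissue. mmu-miR-27a-5p was at 1027, 1020, 772 and 729 CPM in pMSCs and 600, 1160, 912 and 711 CPM in iwatMSCs (log2 fold change 0.07, 95% interval -0.45 to 0.59, edgeR, adjusted p = 0.894), and its log2 fold change without library 7 was 0.08. mmu-miR-23a-5p was the rarest of the 10 arms, at 18.7, 26.8, 18.5 and 20.9 CPM in pMSCs and 6.63, 28.8, 24.9 and 24.8 CPM in iwatMSCs. Library 13, with 60 reads, was far below the rest, and the interval of its log2 fold change was wide, from -0.91 to 0.91 (edgeR, adjusted p = 0.999), and from -1.03 to 1.06 without library 7.

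mmu-miR-24-3p, the product of both clusters, was at 17141, 19574, 8355 and 23668 CPM in pMSCs and 14921, 14693, 21814 and 19169 CPM in iwatMSCs. Library 7 was again the lowest of all, and library 8 the highest. The log2 fold change was -0.04 (SE 0.30, 95% interval -0.71 to 0.63, edgeR, adjusted p = 0.949), and 0.16 without library 7 (95% interval -0.29 to 0.62, edgeR, adjusted p = 0.719).

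The 5p arms tell the 2 miR-24 hairpins apart. mmu-miR-24-2-5p of the a cluster was at 556, 544, 590 and 765 CPM in pMSCs and 474, 629, 923 and 526 CPM in iwatMSCs, with a log2 fold change of -0.06 (95% interval -0.58 to 0.47, edgeR, adjusted p = 0.905), and of -0.06 without library 7 too. miR-24-1-5p of the b cluster, which is not one of the 10 arms, was at 8.06, 8.03, 13.0 and 11.7 CPM in pMSCs and 4.20, 5.17, 8.28 and 3.96 CPM in iwatMSCs. The tissues overlapped only through library 15 of the iwatMSCs, and the log2 fold change of 0.92 (SE 0.32) missed the threshold after adjustment (edgeR, adjusted p = 0.157; 0.310 without library 7).

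**Figure D2:**
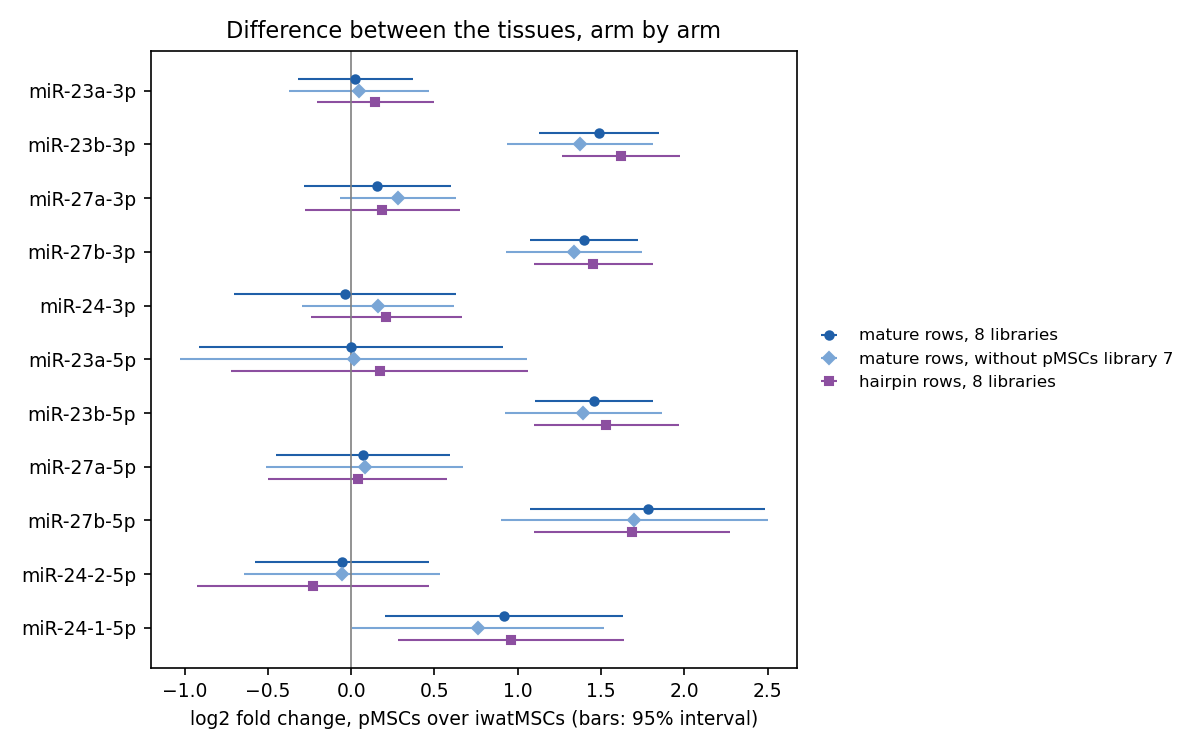
Log2 fold change of pMSCs over iwatMSCs for each arm with its 95% interval from edgeR, for the mature rows in 8 libraries, the mature rows without library 7, and the hairpin rows. The intervals of the 4 b arms of miR-23 and miR-27 lie between 0.90 and 2.50, and those of the a arms and of miR-24-3p and miR-24-2-5p include 0.

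In level, the 10 arms ranged from the most abundant miRNAs of these cells to rare ones. Over the mean CPM of the 8 libraries, miR-24-3p ranked 15th of 1624, miR-23a-3p 16th and miR-27a-3p 19th, with means of 17417, 16306 and 14431 CPM, and their ranges over libraries overlapped. miR-23b-3p ranked 35th and miR-27b-3p 57th. The 5p arms followed, from miR-27a-5p (71st), miR-24-2-5p (85th), miR-23b-5p (151st) and miR-27b-5p (214th) to miR-23a-5p (306th, 21.3 CPM). Mature arms are of nearly 1 length, so CPM compares them without a length term. The ranks use the mature rows only, and CPM was not corrected for any other difference between arms.

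The share of the b paralog within each pair does not depend on the scaling between libraries. Of the reads of miR-23a-3p and miR-23b-3p together, miR-23b-3p took 23.4%, 28.9%, 33.6% and 25.6% in pMSCs libraries 5 to 8 and 13.5%, 11.2%, 11.5% and 13.0% in iwatMSCs libraries 13 to 16. The lowest pMSCs library was well above the highest iwatMSCs library, and library 7 held the highest share. The 95% Wilson intervals reached at most 0.21 percentage points to either side. They cover counting error only and treat each count as separate, though whether a count is of reads or of molecules is not known.

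miR-27b-3p took 12.6%, 12.1%, 18.5% and 9.26% of the miR-27a-3p and miR-27b-3p reads in pMSCs and 6.05%, 5.88%, 4.97% and 5.92% in iwatMSCs. Library 7 again had the highest share and library 8 the lowest among the pMSCs, and all 4 were above the iwatMSCs. The single base that separates this pair is near the 3′ end, where reads are often trimmed or extended. How reads that fit both names were counted is not given in the sources used here. The same holds for the miR-23 pair, of which the b sequence is not shown.

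miR-27b-5p made up 9.49% to 12.2% of the miR-27 5p reads in pMSCs and 1.96% to 5.94% in iwatMSCs. miR-24-1-5p made up 1.43% to 2.16% of the miR-24 5p reads in pMSCs and 0.747% to 0.889% in iwatMSCs. Neither pair of ranges overlapped. For miR-23, the order was the other way round: the b arm took most of the 5p reads, 90.4% to 93.4% in pMSCs and 74.9% to 93.4% in iwatMSCs, where the top value is that of library 13 with its few miR-23a-5p reads.

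As log2 ratios of b over a within a library, with 1 read added to each count, the tissues were compared by an exact two-sided permutation test. The smallest p that 4 against 4 libraries allow is 0.0286. It was reached by 4 of 12 ratios: miR-23b-3p/23a-3p, miR-27b-3p/27a-3p, miR-27b-5p/27a-5p and miR-24-1-5p/24-2-5p, with pMSCs higher by 1.46, 1.28, 1.77 and 0.96 on the log2 scale. For each of them every pMSCs library was above every iwatMSCs library. None passed after adjustment over the 12 ratios (0.0857 for each of the 4, Benjamini-Hochberg). With this smallest p, a ratio can pass the adjustment only if most of the 12 reach it, so the adjusted values decide little. Without library 7 the differences were 1.33, 1.07, 1.68 and 0.81, and 3 against 4 libraries cannot give an exact permutation p below 0.0571.

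The fifth such ratio, miR-23b-5p/23a-5p, overlapped between the tissues. It was 3.71, 3.23, 3.82 and 3.63 on the log2 scale in pMSCs and 3.80, 1.73, 1.57 and 2.13 in iwatMSCs, so that library 13 alone fell among the pMSCs (difference 1.29, exact permutation p = 0.114, adjusted 0.229). The difference was 1.79 without library 13 and 1.22 without library 7.

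**Figure D3:**
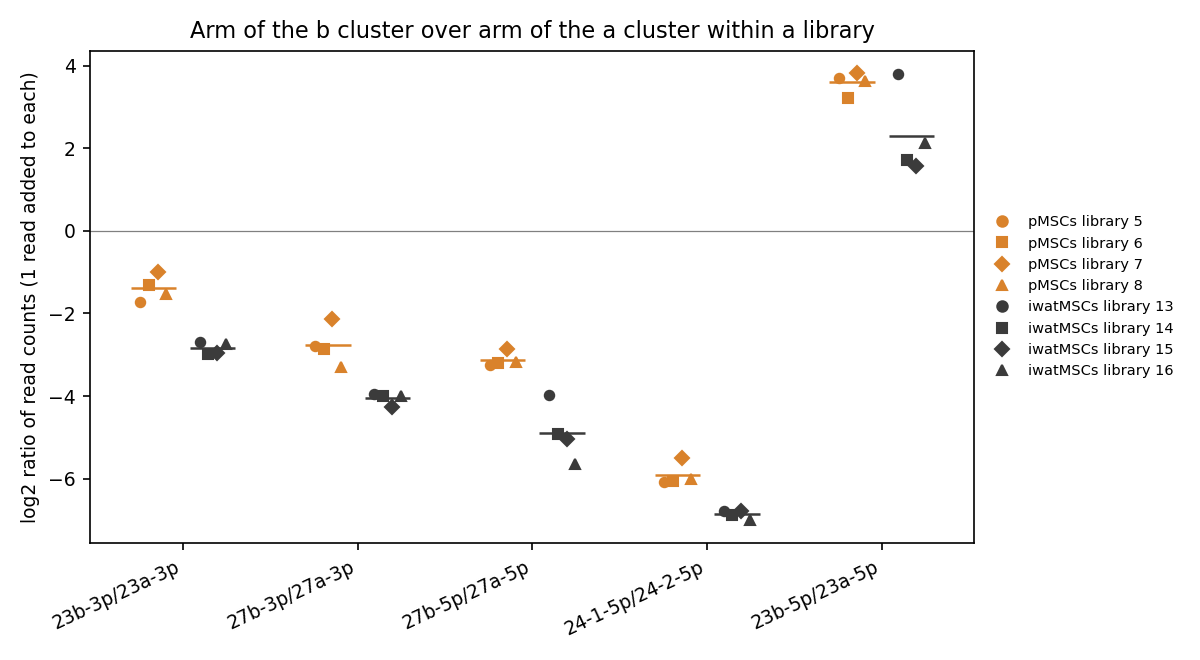
Log2 ratio of the reads of a b arm to those of its a paralog within each library, with pMSCs in orange, iwatMSCs in dark grey and a bar at the mean of each tissue. For 4 of the 5 ratios all pMSCs libraries lie above all iwatMSCs libraries, and for miR-23b-5p/23a-5p library 13 lies among the pMSCs.

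Within a hairpin, no ratio of 5p to 3p arm differed between the tissues by the test. miR-23b-5p over miR-23b-3p averaged -4.62 ± 0.17 on the log2 scale in pMSCs and -4.60 ± 0.22 in iwatMSCs (SD, n = 4 each; exact permutation p = 0.914), and miR-27a-5p over miR-27a-3p averaged -4.08 ± 0.42 and -4.06 ± 0.47 (exact permutation p = 0.914). For miR-27b-5p over miR-27b-3p the means were -4.43 ± 0.08 and -4.90 ± 0.64, with library 16 of the iwatMSCs far below the others at -5.83 (exact permutation p = 0.0571, adjusted 0.137). Without library 7 these 3 differences were 0.02, -0.16 and 0.45 (exact permutation p = 0.914, 0.686 and 0.114). A p that misses the threshold does not show that the arms kept the same balance.

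The ratios of neighbours in a cluster did not pass the test either. miR-27b-3p over miR-23b-3p was between -1.68 and -1.31 on the log2 scale in pMSCs and between -1.57 and -1.37 in iwatMSCs (difference -0.09, exact permutation p = 0.371). miR-27a-3p over miR-23a-3p was between -0.52 (library 7) and 0.18 in pMSCs and between -0.56 and -0.06 in iwatMSCs (difference 0.09, exact permutation p = 0.629). The other 2 ratios, miR-23a-5p over miR-23a-3p and miR-24-2-5p over miR-24-3p, differed by 0.15 and 0.10 (exact permutation p = 0.971 and 0.771). Without library 7 the differences of these 4 ratios were -0.04, 0.21, 0.13 and -0.20, with exact permutation p-values of 0.286 to 0.971, and that of miR-24-2-5p over miR-24-3p had turned its sign.

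**Figure D4:**
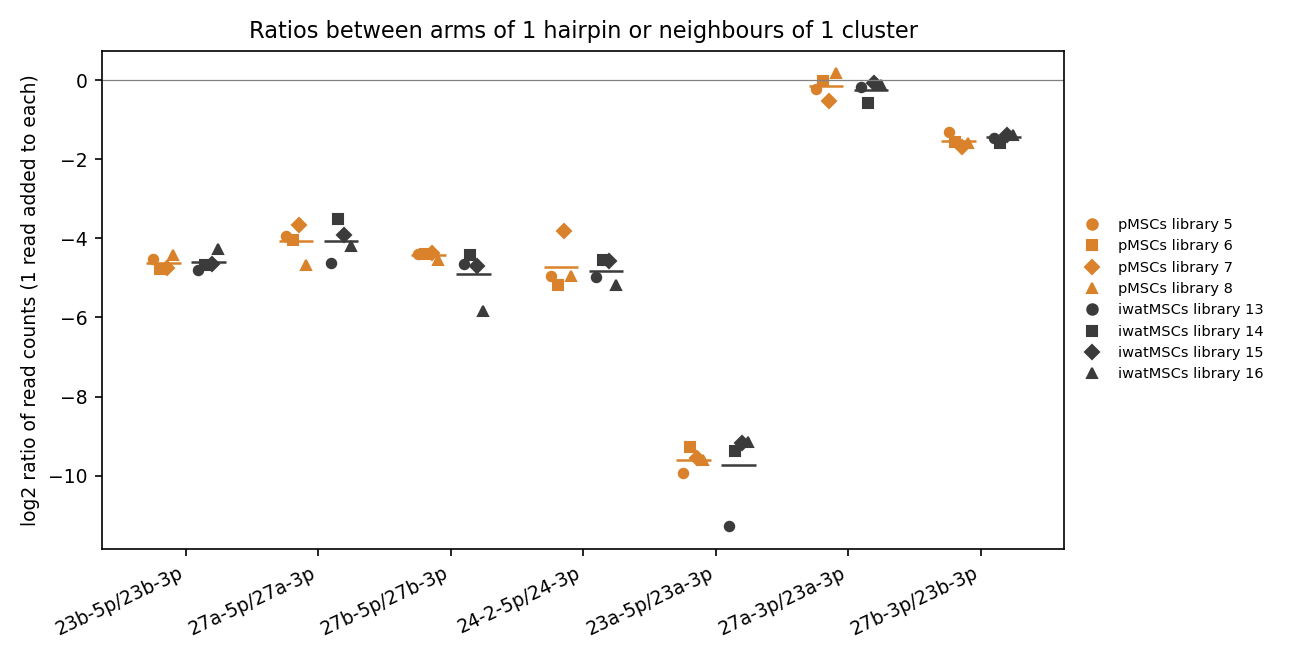
Log2 ratios between the arms of a hairpin and between neighbouring hairpins of a cluster in each library, with pMSCs in orange, iwatMSCs in dark grey and a bar at the mean of each tissue. The tissues overlap for all 7 ratios, and single libraries stand apart for miR-23a-5p/23a-3p (library 13), miR-24-2-5p/24-3p (library 7) and miR-27b-5p/27b-3p (library 16).

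The summed level of each 3p seed family did not pass the test, with the a arm supplying most of the reads of each pair. miR-23a-3p and miR-23b-3p together were at 24272, 23700, 21105 and 21954 CPM in pMSCs and at 19332, 21805, 16259 and 16279 CPM in iwatMSCs. Library 14 of the iwatMSCs lay within the pMSCs range. The summed reads had a log2 fold change of 0.31 (SE 0.14, 95% interval -0.02 to 0.63, edgeR, adjusted p = 0.307). For miR-27a-3p and miR-27b-3p together the levels were 18155, 19104, 11970 and 20326 CPM against 15734, 13913, 14485 and 13773 CPM, with library 7 below all others and the remaining pMSCs libraries above all iwatMSCs (log2 fold change 0.26, SE 0.17, edgeR, adjusted p = 0.431). Without library 7 the log2 fold changes of the sums were 0.33 for miR-23 (95% interval -0.04 to 0.71, edgeR, adjusted p = 0.362) and 0.40 for miR-27 (95% interval 0.10 to 0.71, edgeR, adjusted p = 0.177).

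A second set of rows in the table, classed as hairpin, carries the same arm names for the same libraries, so it is a second readout but no new sample. What reads these rows hold, and whether a read can be counted in both kinds of row, is not given in the sources used here. The hairpin row of miR-23b-3p was below its mature row in 8 of 8 libraries, and that of miR-27b-3p in 0 of 8. There the 4 b arms were again called higher in pMSCs and the 6 others were not, beside 7.74% called among 1072 hairpin rows (4.57% higher and 3.17% lower). The log2 fold changes were 1.62 for miR-23b-3p, 1.53 for miR-23b-5p, 1.45 for miR-27b-3p and 1.68 for miR-27b-5p (edgeR, adjusted p = 5.31e-05, 0.000413, 0.000137 and 0.00163). Without library 7 they were 1.62, 1.54, 1.48 and 1.60 (edgeR, adjusted p = 0.000274, 0.00156, 0.000459 and 0.00666), beside 6.23% called among 1092 hairpin rows (3.57% higher and 2.66% lower). For miR-24-1-5p the tissues did not overlap in these rows, at 5.65, 5.95, 7.86 and 7.35 CPM against 3.04, 2.57, 5.44 and 2.74 CPM, and the log2 fold change was 0.96 (edgeR, adjusted p = 0.0926, and 0.206 without library 7).

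Taking the counts of both kinds of row as separate, the arms were split unevenly between them. Of the summed counts of an arm, the mature row held 76.9% to 83.3% for miR-23b-3p, 51.4% to 55.4% for miR-23a-3p, 45.7% to 52.1% for miR-27a-3p and only 25.7% to 31.8% for miR-27b-3p. The ranges of the tissues overlapped for miR-23b-3p, miR-27a-3p and miR-27b-3p, and for miR-23a-3p they were next to each other (51.4% to 52.3% in pMSCs, 52.3% to 55.4% in iwatMSCs). The level of a b arm relative to its paralog therefore depended on the rows used. With both kinds of row summed, miR-23b-3p took 17.0% to 24.1% of the pair in pMSCs and 7.50% to 9.45% in iwatMSCs, and miR-27b-3p took 16.1% to 25.7% and 8.31% to 9.51%. The tissues stayed apart for both pairs.

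By the shape of their levels over the 8 libraries, each centred on its own mean, miR-23b-3p and miR-27b-3p had a root mean square difference of 0.12 on the log2 scale. This was less than that of either to any of the 170 other known miRNAs with a mean of at least 100 CPM, also without library 7 (0.10). The nearest of those to miR-27b-3p was miR-143-3p (0.20), a miRNA of mesenchymal and smooth muscle cells, and then miR-146b-5p (0.30) and miR-378a-5p (0.32). The nearest to miR-23b-3p were miR-143-3p (0.27), miR-10a-5p (0.29), a miRNA of the Hox clusters, and miR-674-5p (0.34). miR-143-3p was at 44734 to 61443 CPM in pMSCs and 13467 to 17515 CPM in iwatMSCs.

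The a arms were nearest to miRNAs that did not pass the test between the tissues. miR-154-5p (0.08), miR-103-3p (0.10) and miR-25-3p (0.13) were closest to miR-23a-3p, and miR-29a-3p (0.14), miR-376c-3p (0.17) and miR-154-5p (0.19) to miR-27a-3p. Unlike the b neighbours, miR-23a-3p and miR-27a-3p were farther from each other (0.23) than either was from these miRNAs. miR-29a-3p (0.20) was also the nearest to miR-24-3p, before miR-671-5p (0.24) and miR-151-3p (0.27). Like miR-27a-3p and miR-24-3p, miR-29a-3p was at its lowest in library 7, with 6784 CPM against 10335 to 14268 CPM in the other 7 libraries. Without library 7, 3 of the 3 nearest stayed the same for miR-23b-3p and for miR-27b-3p, 2 of 3 for miR-23a-3p and for miR-27a-3p, and 1 of 3, miR-29a-3p, for miR-24-3p. These likenesses describe libraries of 2 tissues that share 1 scaling.

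The miR-27 values can be set beside 12 other miRNAs that have been reported to restrain fat cell formation. Of 11 tested, 1 was higher in pMSCs, 3 were lower and 7 were not called, with a median log2 fold change of -0.43, beside 6.45% called among all mature miRNAs (3.46% higher and 2.98% lower). Without library 7 the counts were again 1, 3 and 7, with a median of -0.47. miR-145a-5p was higher (log2 fold change 1.44, edgeR, adjusted p = 0.0117), at 535 to 830 CPM against 206 to 423 CPM. miR-31-5p (-1.95; 340 to 476 against 1277 to 1639 CPM), miR-221-3p (-1.03; 2348 to 2822 against 4391 to 6599 CPM) and miR-138-5p (-0.90; 43.9 to 48.7 against 80.0 to 92.4 CPM) were lower in pMSCs (edgeR, adjusted p = 0.000147, 0.00472 and 0.00481). The called members of this list moved in both directions.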

How the data were processed

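Small RNA of sorted, expanded pMSCs and iwatMSCs was measured in 4 libraries each. The deposited read count of each small RNA was made by the authors (BGI) from libraries with unique molecular identifiers, by adapter ligation, amplification, sequencing on BGISEQ and classification of small RNA. Bowtie2 is the aligner in the submitters' processing notes. Its version, the genome build and the miRBase release for small RNA are not given in the sources used here, nor whether a count is of reads or of molecules. The score that the authors called TPM and deposited beside each count is a whole number, never above the count and not scaled to a common total. It was 99.5% to 100% of the count for miR-23a-5p and 43.3% to 56.7% for miR-24-3p, leaving out library 7, so that high values are compressed. Group means in the study's supplementary tables matched this score for 58 of 58 miRNAs without library 7, and for at most 3 with all 8 libraries or another one left out.

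All 16 value columns were used, the counts for the results and the score for alternatives. A mature name entered the test if its mean in either tissue reached 1 read. The test was the two-sided quasi-likelihood test of edgeR 4.0.16 (R 4.3.3) with TMM factors and no term but tissue, Benjamini-Hochberg adjusted over all names tested, with a threshold of 0.05. SEs were approximated by dividing the log2 fold change by the root of the F statistic. limma 3.58.1 and DESeq2 1.42.0 served as alternatives, and exact permutation tests, Wilson intervals (95%) and figures used Python 3.11.15 with numpy 2.4.6, scipy 1.17.1, pandas 2.3.3 and matplotlib 3.10.9. The fits were tested on simulated data. No 2 libraries of a tissue agreed within sampling noise. Hairpin rows turned out to be named by mature arm, so they could not tell the loci of miR-24-3p apart. They were fitted with edgeR as an alternative chosen after the data were seen.

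The arms and lists were chosen with earlier results of these data known. The miRNAs named are the 10 arms, miR-24-1-5p, the 3 nearest in shape to each 3p arm (mean of at least 100 CPM, log2(CPM + 1)), and the called ones of a list of 12 miRNAs reported to restrain adipogenesis. miR-363-3p of that list did not pass the filter.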

Additional observations from a re-analysis of the deposited data

Results flagged for a closer look

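In groups of 4 libraries, a library was singled out where its gap to the nearest of the other 3 passed Dixon's critical share of the whole range of the group, at 95%. This held in 8 of 68 groups tested. For independent groups of normal values, chance alone gives about 1 in 20. The groups share libraries and arms, so the count cannot be set against that rate.

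Among the b arms, miR-27b-5p was at 80.2 CPM in library 8 of the pMSCs, against 107 to 111 CPM in the other 3. In its hairpin row, library 16 of the iwatMSCs was at 6.69 CPM against 13.2 to 13.9 CPM. The hairpin row of miR-24-1-5p was at 5.44 CPM in library 15 of the iwatMSCs, against 2.57 to 3.04 CPM. The hairpin row of the a arm miR-23a-3p was at 15031 CPM in library 14 of the iwatMSCs, against 11890 to 12299 CPM.

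Among the log2 ratios, miR-27b-3p/27a-3p was -4.26 in library 15 of the iwatMSCs, against -4.00 to -3.96, and miR-23a-5p/23a-3p was -11.28 in library 13, against -9.39 to -9.15. Both others were in library 7 of the pMSCs: miR-24-2-5p/24-3p was -3.82 against -5.17 to -4.95, and miR-24-1-5p/24-2-5p was -5.49 against -6.08 to -6.02.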

How the results depend on the processing

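The 4 b arms were called under every fit to the mature counts, whatever library was left out (members called 4 to 4), with RLE size factors, scaling to all small RNA reads, DESeq2, no filter or a minimum of 10 reads. With the 3p reads of the paralogs summed, 2 arms were called, miR-23b-5p and miR-27b-5p. The 3p arms of miR-23 and miR-27 were then tested only as sums, and neither sum was called (edgeR, adjusted p = 0.307 and 0.431). limma on log2 of the deposited TPM called 0 of the 10 with 8 libraries, whatever the pseudocount, library 7 holding 1 for each. The log2 fold changes with pseudocounts of 1, 0.5 and 5 were then -2.40, -2.50 and -2.003 for miR-23b-3p, -1.09, -1.20 and -0.70 for miR-23b-5p, -1.99, -2.10 and -1.60 for miR-27b-3p, and -0.39, -0.49 and -0.010 for miR-27b-5p. Alternatives chosen after seeing the data left out library 7: limma on TPM then called 2 with pseudocounts of 1 and 0.5 (adjusted p of 0.062 to 0.0696 for miR-23b-3p and miR-27b-5p) and 4 with 5, edgeR on TPM called 4, edgeR on the paralog sums called 2, and DESeq2 on counts called 5, adding miR-27a-3p (log2 fold change 0.32, adjusted p = 0.0228). Over all mature miRNAs, limma on TPM of these 7 libraries called 55, 59 and 58 (pseudocounts of 1, 0.5 and 5). There edgeR called 67 on TPM and 64 on the paralog sums, and DESeq2 called 114 on counts. The ranges that follow leave aside TPM with 8 libraries and the fits to hairpin rows alone. Log2 fold changes over the remaining alternatives ran from 1.16 to 1.55 for miR-23b-3p, 1.37 to 1.55 for miR-23b-5p, 1.26 to 1.46 for miR-27b-3p and 1.55 to 1.93 for miR-27b-5p. Of the 6 arms not called, 5 changed sign under some of these alternatives, miR-23a-5p under 14 of 21, and miR-27a-3p under none of 19. Hairpin rows alone gave higher values than these ranges for miR-23b-3p (1.62) and, without library 7, for miR-27b-3p (1.48).

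Over all mature miRNAs, the 80 calls became 56 to 72 with a library left out, 129 with DESeq2, and 4, 1 and 5 with limma on TPM of 8 libraries (pseudocounts of 1, 0.5 and 5). The count of ratios at an exact permutation p under 0.05 fell from 4 to 0 with any library left out (0 to 0) and with TPM of 7 libraries, designs whose smallest p is 0.0571. All 4 of these ratios kept their direction. No paired analysis was possible because the library numbers of the 2 tissues do not match. Depth limits miR-23a-5p and miR-24-1-5p, with as few as 60 and 36 reads in a library.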

Other observations

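The table also holds 2 family rows, classed as precursor, that are named for the family and not for a paralog. Whether their reads are also counted in the mature or hairpin rows is not given in the sources used here. The mir-23 row held 53525, 71130, 55066 and 60473 reads in pMSCs libraries 5 to 8 and 43619, 46611, 43642 and 40093 reads in iwatMSCs libraries 13 to 16. The mir-27 row held 53653, 66769, 54788 and 64742 reads in pMSCs and 51049, 45461, 41207 and 40960 reads in iwatMSCs. These read counts were not scaled for depth and not tested. Mature reads ran from 7789990 to 10538022 in the pMSCs libraries and from 7956309 to 8830432 in the iwatMSCs libraries.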
